A study of Homo sapiens with 6 samples.

Results

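The endoplasmic reticulum (ER) takes up newly made secretory and membrane proteins, folds them, and destroys those that fail to fold. The genes described here encode its lectin chaperones, its disulfide isomerases, its degradation machinery, the channel through which proteins enter, and the sensors that report folding stress. Heat shock proteins and DNAJ co-chaperones are not among them. The list holds 40 genes, and its members were the rows of the expression table that carry a listed symbol. Of the 40, 39 were found among the 12829 genes of the table, and DERL3 is not analysed here.

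The cells were HaCaT, a spontaneously immortalised human keratinocyte line with an abnormal chromosome number. They were compared between 3 libraries of cells with a short hairpin RNA against IQGAP2 (shIQGAP2, genotype IQGAP2 knockdown) and 3 libraries of cells labelled normal control (genotype WT). Both groups were grown in the same serum-containing medium, per the labels, with no further treatment or time named. The labels call the replicates biological without naming separate cultures, and do not say whether the controls carried a hairpin or how many hairpins or clones were used. The p-values therefore measure only how these 6 libraries spread, and that spread may be technical. IQGAP2 encodes a scaffold protein that binds actin and calmodulin.

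In the ER, newly made glycoproteins are held by the lectins calnexin and calreticulin until they fold, while isomerases form and rearrange their disulfide bonds. Chains that stay unfolded are trimmed, recognised, drawn back to the cytosol and degraded, a process named ER-associated degradation (ERAD). When unfolded proteins build up, the sensors IRE1 (gene ERN1), PERK (gene EIF2AK3) and ATF6 start the unfolded protein response, which slows translation and raises transcription of chaperone and ERAD genes. Keratinocytes secrete and assemble matrix and adhesion proteins and so depend on this route.

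Promoter sequences are shown first because several members are textbook targets of ATF6 and XBP1, which act through short elements near the start of the gene. The ER stress response element (ERSE: CCAAT, any 9 bases, then CCACG) and its shorter variant (ERSE-II: ATTGG, any 1 base, then CCACG) were searched on both strands in RefSeq windows of GRCh38.p14, from 250 bases before to 50 bases after each annotated start. Only exact matches to these letters were counted, so a site with 1 changed letter was missed. Of 39 members, 37 had a window. ERSE was found in 5 of these (13.5%), against 0.0916% of 27305 genes with a window and 0.176% of 9111 tested genes with one. ERSE-II was found in 3 members (8.11%), against 0.0696% and 0.154% of the same genes. Since the list holds known targets of these factors, higher shares were built into its choice and are only a description. The 9 sites in 8 members are printed on the strand of the gene with the match in capitals, so that a match on the opposite strand begins with CGTGG.
CANX: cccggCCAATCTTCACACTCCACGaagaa
XBP1: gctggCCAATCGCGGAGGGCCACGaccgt
CALR: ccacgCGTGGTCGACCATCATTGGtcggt
CRELD2: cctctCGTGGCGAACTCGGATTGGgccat
PDIA6: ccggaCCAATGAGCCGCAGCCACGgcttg
HYOU1, far site: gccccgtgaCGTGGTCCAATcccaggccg
HYOU1, near site: ggcctgggaCGTGGTCCAATgagtacgcg
HERPUD1: cggacgccgATTGGGCCACGttgggagag
SDF2L1: cctcggaagCGTGGACCAATcaaaaccct

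The first 5 sites are ERSE and lie at chr5:179698773-179698801 (CANX, plus strand), chr22:28800598-28800626 (XBP1, minus), chr19:12938379-12938407 (CALR, plus), chr22:49918549-49918577 (CRELD2, plus) and chr2:10812848-10812876 (PDIA6, minus). The ERSE-II sites lie at chr11:119057371-119057399 and chr11:119057265-119057293 (HYOU1, minus), chr16:56932016-56932044 (HERPUD1, plus) and chr22:21642105-21642133 (SDF2L1, plus). The 250 bases before the start of HYOU1 (chr11:119057206-119057455, minus strand) and of SDF2L1 (chr22:21642052-21642301, plus strand) are shown whole because these partners of the ER chaperone BiP carry the same element and moved in opposite directions in the knockdown. The HYOU1 matches begin 185 and 79 bases before the start, and that of SDF2L1 begins 188 bases before it.
HYOU1: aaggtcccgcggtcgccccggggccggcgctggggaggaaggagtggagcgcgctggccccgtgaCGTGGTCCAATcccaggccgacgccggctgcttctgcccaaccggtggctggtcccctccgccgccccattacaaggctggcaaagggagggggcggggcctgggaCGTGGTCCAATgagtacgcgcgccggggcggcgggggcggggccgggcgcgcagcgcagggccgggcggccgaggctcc
SDF2L1: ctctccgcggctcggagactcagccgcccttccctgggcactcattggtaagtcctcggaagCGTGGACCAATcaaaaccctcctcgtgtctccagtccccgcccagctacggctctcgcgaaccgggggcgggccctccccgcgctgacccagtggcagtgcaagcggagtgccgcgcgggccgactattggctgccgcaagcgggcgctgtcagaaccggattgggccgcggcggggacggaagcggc

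Of the 8 members with either element, 4 rose in the knockdown (CANX, XBP1, HYOU1 and HERPUD1) and 3 fell (CALR, CRELD2 and SDF2L1). PDIA6 did not pass the test given below. Of all genes tested, 57.4% passed it, 29.5% as higher and 27.8% as lower. The median log2 change of the 8 members was 0.17, against 0.18 for the 29 members with a window and no exact match to either element. The unfolded protein response element TGACGTGG, which XBP1 and ATF6 bind, was in 5 members (HYOU1, VCP, SEC62, SSR3 and SSR4), or 13.5%, against 1.17% of tested genes with a window. Its HYOU1 match overlaps the far ERSE-II site. Among those 5, HYOU1 and SSR3 rose, VCP and SSR4 fell, and SEC62 did not pass. TGATGNAAT, the element of ATF4 target genes, was in 0 members and in 0.691% of tested genes. A match describes letters in a window and does not show that a factor binds there. These shares too describe a list that holds known targets.

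The knockdown was read first in IQGAP2 itself. It had 0.0196, 0.0328 and 0.0182 FPKM (fragments per kilobase of gene, scaled to library depth) in knockdown libraries 1 to 3, against 0.200, 0.198 and 0.190 FPKM in control libraries, on 2 to 4 and 21 to 24 recovered reads. The groups did not overlap (exact permutation test, two-sided, p = 0.1, the smallest that 3 libraries against 3 allow). The limma log2 change of -0.22 (SE 0.072) had an adjusted p = 0.0217, a call that was lost without any 1 control library or without knockdown replicate 3 (adjusted p 0.0519 to 0.0556). Adding 1 FPKM shrinks changes of so low a gene, and on the recovered reads limma's voom gave IQGAP2 a log2 change of -2.86 (adjusted p = 4.70e-05). Depth was 12901037 to 15360759 recovered reads in knockdown libraries and 13957447 to 15122470 in control libraries. Knockdown replicate 2 differed more from its group than any other library did: chi-square over degrees of freedom, on recovered reads, was 11.3 and 10.5 for its pairs and 2.10 to 2.49 for the remaining pairs within a group. It was the highest or the lowest knockdown library for 17 and 15 of the 39 members. All 5 keratinocyte markers were present at 49.3 FPKM or more. KRT5, KRT6A, TP63 and DSG3 lay higher in every knockdown library (DSG3 at 100 to 115 FPKM in knockdown libraries and 49.3 to 51.4 FPKM in control libraries), while KRT14 lay lower (2093 to 2425 FPKM in knockdown libraries and 2503 to 2613 FPKM in control libraries). Their part in the results was not tested. Of 11 markers of fibroblasts, melanocytes, immune and endothelial cells, 3 were found in the table, each at no more than 1.62 FPKM.

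All 39 members passed the filter on low values, which kept genes whose 6 libraries averaged 0.5 FPKM or more. In limma on log2(FPKM + 1), with p-values adjusted by Benjamini and Hochberg over all 11214 genes tested and a threshold of 0.05, 18 members rose and 10 fell in the knockdown, 71.8% of the 39. Of all genes tested, 57.4% passed, 29.5% as higher and 27.8% as lower. The knockdown and control values did not overlap for 32 members (82.1%), against 65.1% of all genes tested. In bulk RNA, fewer cells of a type and less RNA per cell cannot be told apart. The median log2 change was 0.18 for the members and 0.01 for all genes, and the median size of the change without its sign was 0.25 for the members and 0.22 for all genes. Without knockdown replicate 2 the members' median was 0.12, with 16 members higher and 10 lower, beside 3250 and 3212 of all genes.

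FPKM summed to less in knockdown than in control libraries (234624 to 248082 against 271372 to 274709). With each library rescaled to a common sum, the median of all genes moved to 0.14, with 4864 genes higher and 1838 lower in place of 3313 and 3121, and 25 members were higher and 8 lower. All changes that follow use FPKM without this rescaling. No member called higher or lower changed sign in any of the 15 other settings run, and 19 of the 28 called members (11 higher and 8 lower) passed in each of them.

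**Figure D1:**
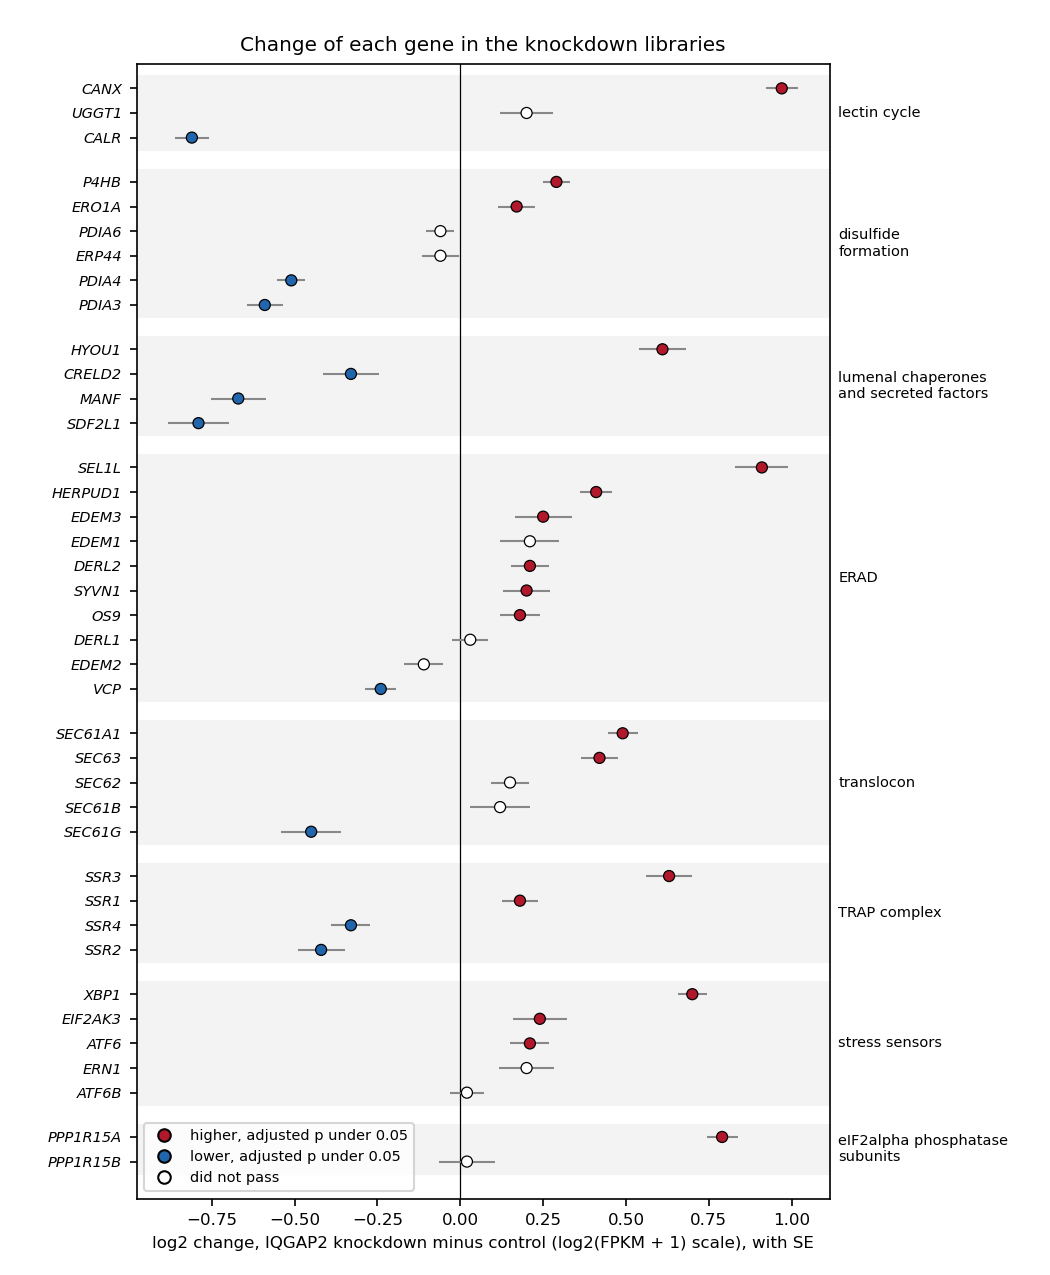
Log2 change (knockdown minus control, log2(FPKM + 1) scale) of the 39 genes, grouped by role, with the standard error from limma over 3 libraries a group. Red points passed as higher (18), blue as lower (10) and white did not pass (11), and red and blue stand side by side in 6 of the 8 roles. Of all genes tested, 29.5% passed as higher and 27.8% as lower.

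Summed over the 39 genes, the level was 1516, 1486 and 1514 FPKM in knockdown libraries and 1519.5, 1563 and 1535 FPKM in control libraries, slightly lower in the knockdown. As a share of recovered reads the same genes were higher in every knockdown library (0.777 to 0.794%) than in the control libraries (0.703 to 0.719%), so the direction of the sum turned with the measure. The order of the members differed too. In the knockdown the 5 highest members were CALR, PDIA3, PPP1R15A, XBP1 and CANX, and in the control they were CALR, PDIA3, PDIA4, XBP1 and PPP1R15A. In the control PPP1R15A (70.2 ± 1.04 FPKM) and XBP1 (70.7 ± 1.48 FPKM, SD, n = 3) did not differ beyond their spread. CANX was 5th in the knockdown and 9th in the control. FPKM divides by a gene length, and for 31 of 39 members the length implied by the deposited values was within 10% of the summed exons in GENCODE v29. For CANX it was 2.21 times as long, for P4HB 2.1, for VCP 1.85, for ATF6 1.81 and for EIF2AK3 3.81 times, so levels of these genes set against others depend on the annotation. On the log2(FPKM + 1) scale the length also bears on the change of a low gene, such as EIF2AK3.

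**Figure D2:**
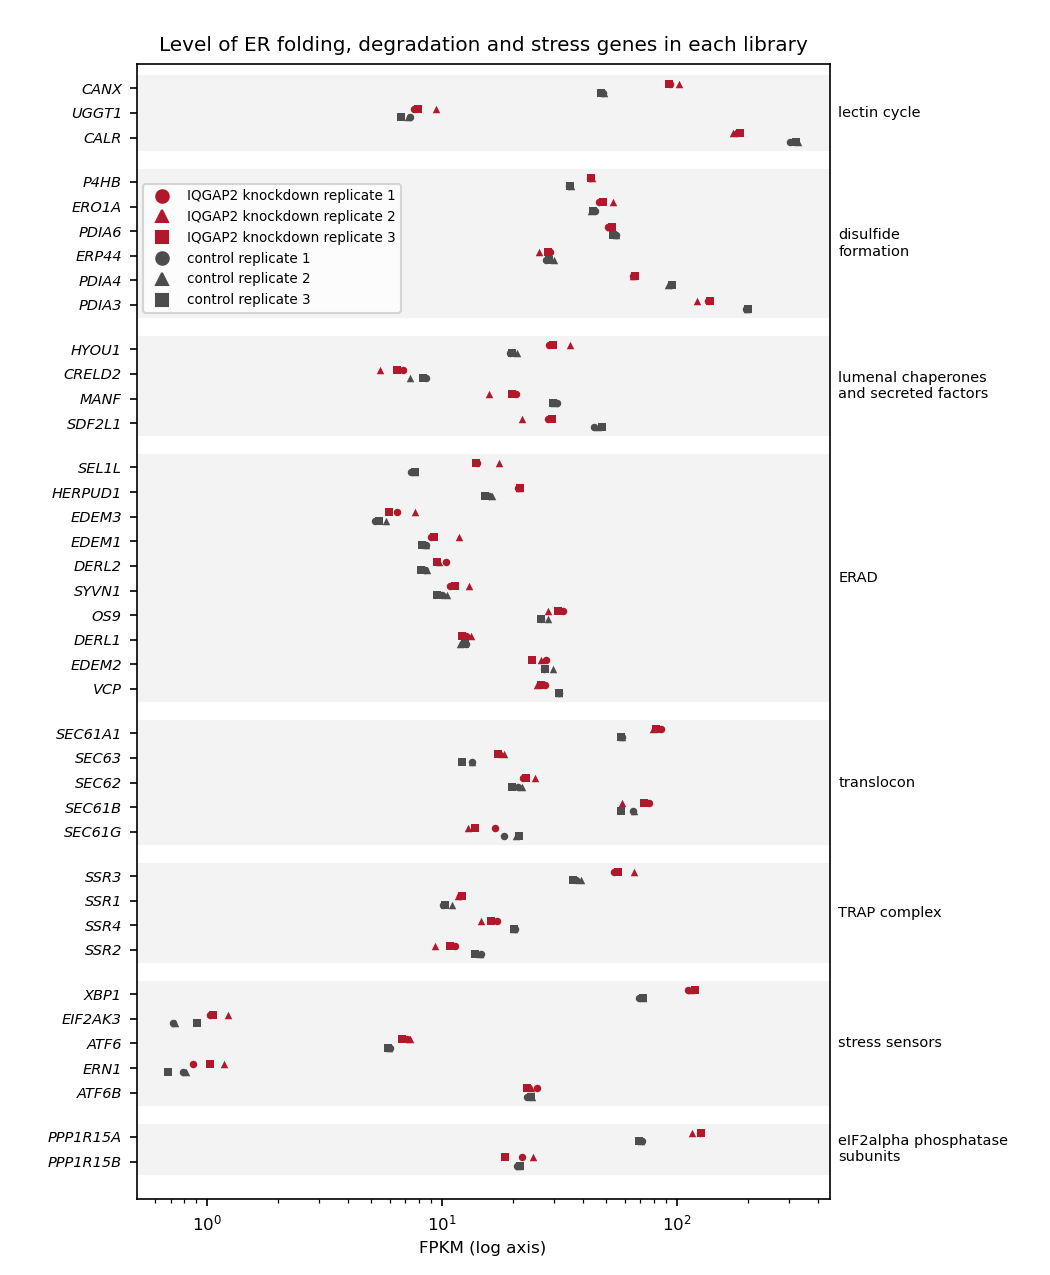
FPKM (log axis) of the 39 genes in each of the 6 libraries, grouped by role, with knockdown libraries in red above control libraries in grey and a marker shape for each replicate number. CANX, SEL1L, XBP1 and PPP1R15A lie to the right in all knockdown libraries, and CALR, PDIA3, PDIA4, SDF2L1 and MANF to the left.

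The lectin chaperones moved in opposite directions. CANX (ENSG00000127022, GRCh38 chromosome 5, 179678628 to 179730925) encodes calnexin, which is anchored in the ER membrane, and CALR (ENSG00000179218, chromosome 19, 12938578 to 12944489) encodes calreticulin, its soluble relative in the lumen. CANX had 93.5, 102 and 92.5 FPKM in knockdown libraries, against 48.4, 49.0 and 47.4 FPKM in control libraries. All knockdown values were above all control values, a ratio of means of 1.99 (log2 change 0.97, SE 0.049, adjusted p = 3.54e-07), the largest rise among the members on the log2(FPKM + 1) scale. SEL1L, described with the ERAD genes, had a ratio of 2.01. CALR had 181, 174 and 186 FPKM in knockdown libraries, against 303, 328 and 321 FPKM in control libraries. Here all knockdown values were lower, with a ratio of 0.568 (log2 change -0.81, SE 0.051, adjusted p = 1.40e-06), a fall close in size to that of SDF2L1 among the lumenal chaperones. Within each library the CANX level was 0.517, 0.584 and 0.498 of the CALR level in the knockdown and 0.160, 0.149 and 0.148 of it in the control. This ratio was chosen after the values were seen and is a description. The length implied by the deposited values was 2.21 times the GENCODE v29 exons for CANX and 1.03 times for CALR. Which of the 2 genes stands higher within a library therefore depends on the annotation.

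UGGT1, which puts a glucose back on glycoproteins that are not yet folded and so returns them to the lectins, had 7.60, 9.46 and 7.92 FPKM in knockdown libraries and 7.31, 7.20 and 6.72 FPKM in control libraries. The groups did not overlap, but the difference narrowly missed the threshold (log2 change 0.20, adjusted p = 0.0502). It passed without knockdown replicate 1 (adjusted p = 0.0255) and under the settings named in the closing section. Without knockdown replicate 2 the UGGT1 change was 0.12 (adjusted p = 0.11), and with the length trend removed it was 0.05 (adjusted p = 0.551).

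Among genes of disulfide formation, 2 of 6 rose and 2 fell, 66.7% called against 57.4% of all genes tested. PDIA3 encodes ERp57, the isomerase that works bound to calnexin or calreticulin. It had 136, 122 and 138 FPKM in knockdown libraries, against 198, 199 and 201 FPKM in control libraries (log2 change -0.59, SE 0.054, adjusted p = 1.55e-05). PDIA4, the isomerase ERp72, had 64.9, 65.1 and 66.4 FPKM in knockdown libraries, against 94.1, 91.3 and 95.1 FPKM in control libraries (log2 change -0.51, adjusted p = 8.00e-06). In both genes every knockdown value was below every control value. P4HB is protein disulfide isomerase itself and also the beta subunit of the collagen prolyl 4-hydroxylase. Its levels were 42.8, 43.5 and 43.2 FPKM in knockdown libraries, against 34.8, 35.5 and 35.0 FPKM in control libraries, a rise in all 3 (log2 change 0.29, SE 0.041, adjusted p = 2.20e-04).

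ERO1A, the oxidase that recharges protein disulfide isomerase, was at 49.7 ± 3.62 FPKM in the knockdown and 44.1 ± 0.847 FPKM in the control (SD, n = 3; adjusted p = 0.0261). That call was lost without any 1 control library (adjusted p 0.0541 to 0.0891) and with the length trend removed (0.127). PDIA6 and ERP44 did not pass. PDIA6, a further isomerase, was at 52.2 ± 1.04 FPKM in the knockdown and 54.6 ± 0.795 FPKM in the control (adjusted p = 0.217). ERP44, which retrieves ERO1A and unassembled subunits from the Golgi, was at 27.7 ± 1.68 and 28.8 ± 1.19 FPKM in knockdown and control libraries (adjusted p = 0.423). Summed over the 6 genes, the level was 362 to 378 FPKM in knockdown libraries and 454 to 457 FPKM in control libraries.

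Of 4 lumenal chaperones and secreted factors, 3 fell and 1 rose, so all 4 were called, against 57.4% of all genes tested. SDF2L1, which works with BiP and a DNAJ co-chaperone to keep clients from aggregating, had 28.2, 22.0 and 29.5 FPKM in knockdown libraries, against 44.5, 46.2 and 48.1 FPKM in control libraries. Its log2 change was -0.79 (SE 0.092, adjusted p = 6.96e-05). MANF, a secreted survival factor that also binds BiP, had 20.7, 15.9 and 19.9 FPKM in knockdown libraries, against 30.9, 30.1 and 29.8 FPKM in control libraries (log2 change -0.67, adjusted p = 1.02e-04). In both, knockdown replicate 2 was the lowest library, and both fell without it too (log2 changes -0.66 and -0.56). CRELD2, an ER stress-inducible protein with isomerase-like motifs, had 6.81, 5.48 and 6.42 FPKM in knockdown libraries, against 8.56, 7.32 and 8.30 FPKM in control libraries. It fell (log2 change -0.33, adjusted p = 0.00757), but did not pass with values rescaled to a common sum (-0.18, adjusted p = 0.078).

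HYOU1 went the other way. It encodes GRP170, which exchanges the nucleotide of BiP. Its levels were 28.7, 35.1 and 29.8 FPKM in knockdown libraries, against 19.5, 20.8 and 19.9 FPKM in control libraries (log2 change 0.61, SE 0.071, adjusted p = 6.96e-05). Knockdown replicate 2 was the highest, and the rise without it was 0.52. Within a library, HYOU1 stood at 1.02, 1.59 and 1.01 times SDF2L1 in the knockdown and at 0.438, 0.450 and 0.413 times in the control, a ratio chosen after the values were seen.

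Of 10 ERAD genes tested, 6 rose, 1 fell and 3 did not pass, 70.0% called against 57.4% of all genes tested. SEL1L (ENSG00000071537, chromosome 14, 81471549 to 81533861) encodes the adaptor that holds the ubiquitin ligase HRD1 in its membrane complex. It had 14.1, 17.5 and 14.0 FPKM in knockdown libraries, against 7.37, 7.66 and 7.70 FPKM in control libraries. The groups lay far apart, with a ratio of means of 2.01 (log2 change 0.91, SE 0.080, adjusted p = 1.17e-05). SYVN1, the ligase HRD1 itself, was at 11.7 ± 1.17 FPKM in the knockdown and 10.0 ± 0.484 FPKM in the control (SD, n = 3; log2 change 0.20, adjusted p = 0.034). The SYVN1 call was lost without control replicate 1 or 3 or knockdown replicate 2 or 3 (adjusted p 0.0523 to 0.121). Its exons overlap those of FAU on the same strand, so reads of the pair may have been divided or dropped. The same limit holds for SSR1, which overlaps CAGE1 (69 bases), and for ATF6B, which overlaps TNXB (71 bases) and AL662884.2 (289 bases). SEL1L stood at 1.31, 1.34 and 1.23 times SYVN1 within knockdown libraries and at 0.739, 0.727 and 0.805 times within control libraries, a ratio chosen after the values were seen.

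HERPUD1, which brings substrates and partners to the HRD1 complex and is itself strongly induced by ER stress, had 21.1, 21.3 and 21.6 FPKM in knockdown libraries, against 15.9, 16.3 and 15.2 FPKM in control libraries. It rose (log2 change 0.41, SE 0.048, adjusted p = 7.31e-05) with no overlap. VCP, the cytosolic ATPase that pulls substrates out of the membrane, was the member of this group that fell. It had 27.5, 25.4 and 26.4 FPKM in knockdown libraries, against 31.4, 31.6 and 31.5 FPKM in control libraries (log2 change -0.24, adjusted p = 0.0014), and did not pass under a common sum (-0.08, adjusted p = 0.15).

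The remaining ERAD genes differed by less. DERL2, a derlin that helps substrates cross the membrane, was at 9.90 ± 0.442 FPKM in the knockdown and 8.42 ± 0.228 FPKM in the control (adjusted p = 0.00983). Its relative DERL1 was at 12.7 ± 0.524 and 12.4 ± 0.382 FPKM in knockdown and control libraries and did not pass (adjusted p = 0.613). OS9, the lectin that reads trimmed glycans, was at 30.8 ± 2.34 FPKM in the knockdown and 27.0 ± 1.16 FPKM in the control and passed (adjusted p = 0.0277), although the groups overlapped. The OS9 call was lost without control replicate 1 or 3 or knockdown replicate 1 or 3 (adjusted p 0.0711 to 0.0976).

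The 3 EDEM genes encode mannosidase-like proteins that trim glycans to mark proteins for disposal. EDEM3 was at 6.70 ± 0.876 FPKM in the knockdown and 5.47 ± 0.321 FPKM in the control (log2 change 0.25, adjusted p = 0.0314). Without control replicate 1 or 3, or knockdown replicate 2, EDEM3 did not pass (adjusted p 0.0673 to 0.108). EDEM1 was at 10.0 ± 1.54 FPKM in the knockdown and 8.43 ± 0.192 FPKM in the control, without overlap and without passing (adjusted p = 0.0615). It passed without knockdown replicate 1 (0.0282) or 3 (0.0478), but not without knockdown replicate 2 (0.116) or with the length trend removed (0.107). EDEM2 was at 26.1 ± 1.77 FPKM in the knockdown and 28.2 ± 1.34 FPKM in the control (adjusted p = 0.153). Summed over the 10 genes, the level was 166 to 174 FPKM in knockdown libraries and 152 to 159 FPKM in control libraries.

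The channel through which proteins enter the ER is built of SEC61A1, the pore, with the small subunits SEC61B and SEC61G. SEC61A1 had 86.0, 79.5 and 81.3 FPKM in knockdown libraries, against 58.5, 58.7 and 58.1 FPKM in control libraries. Every knockdown value was higher (log2 change 0.49, SE 0.045, adjusted p = 1.65e-05). SEC61G had 16.9, 12.9 and 13.8 FPKM in knockdown libraries, against 18.3, 20.7 and 21.2 FPKM in control libraries, and fell (log2 change -0.45, SE 0.091, adjusted p = 0.00202). SEC61B had 75.8, 58.4 and 72.4 FPKM in knockdown libraries and 64.8, 65.9 and 57.8 FPKM in control libraries, overlapped between groups and missed the threshold (log2 change 0.12, adjusted p = 0.264). Without knockdown replicate 2, its lowest knockdown library, SEC61B passed as higher (0.24, adjusted p = 0.00423).

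SEC62 and SEC63 form the part of the channel that serves short and slowly entering proteins. SEC63 had 17.5, 18.4 and 17.4 FPKM in knockdown libraries, against 13.4, 13.5 and 12.2 FPKM in control libraries, and rose (log2 change 0.42, adjusted p = 1.53e-04). SEC62 was at 23.3 ± 1.36 FPKM in the knockdown and 20.9 ± 1.08 FPKM in the control and missed the threshold (log2 change 0.15, adjusted p = 0.0516). The gene passed without knockdown replicate 1 (0.0363), but not without knockdown replicate 2 (0.0998). With the length trend removed the SEC62 change was 0.06 (adjusted p = 0.359).

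The TRAP complex sits beside the channel and helps some signal sequences open it. Its 4 subunits split evenly, 2 higher and 2 lower, so all 4 were called, against 57.4% of all genes tested. SSR3, the gamma subunit, had 54.2, 65.9 and 56.1 FPKM in knockdown libraries, against 37.2, 39.0 and 36.0 FPKM in control libraries (log2 change 0.63, SE 0.070, adjusted p = 5.18e-05). SSR2, the beta subunit, had 11.4, 9.34 and 10.8 FPKM in knockdown libraries, against 14.7, 14.6 and 13.9 FPKM in control libraries (log2 change -0.42, adjusted p = 6.06e-04). For neither gene did the groups overlap. SSR4, the delta subunit, had 17.1, 14.7 and 16.2 FPKM in knockdown libraries, against 20.4, 20.3 and 20.2 FPKM in control libraries, and fell (log2 change -0.33, adjusted p = 9.58e-04). SSR1, the alpha subunit, was at 12.0 ± 0.212 FPKM in the knockdown and 10.5 ± 0.457 FPKM in the control (SD, n = 3; log2 change 0.18, adjusted p = 0.0169). The SSR1 call was lost without control replicate 1 or 3 or knockdown replicate 3 (adjusted p 0.0521 to 0.0733), and with the length trend removed its change was 0.02 (adjusted p = 0.773). The SSR3 to SSR2 ratio, chosen after the values were seen, was 4.74, 7.06 and 5.22 within knockdown libraries and 2.53, 2.68 and 2.58 within control libraries.

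Of the 5 genes of the stress sensors, 3 rose and none fell, with ATF6B and ERN1 not passing. This count is to be read beside all genes tested, of which 57.4% passed, 29.5% as higher and 27.8% as lower. XBP1 (ENSG00000100219, chromosome 22, 28794555 to 28800597) encodes the transcription factor made once IRE1 has spliced its mRNA, and gene-level FPKM does not separate the spliced from the unspliced form. It had 112, 115 and 119 FPKM in knockdown libraries, against 69.0, 71.5 and 71.7 FPKM in control libraries. All knockdown values were higher, a ratio of means of 1.63 (log2 change 0.70, SE 0.044, adjusted p = 1.55e-06). ERN1 itself was low, at 0.876, 1.18 and 1.03 FPKM in knockdown libraries and 0.788, 0.813 and 0.683 FPKM in control libraries, on 92 to 175 reads a library. Its groups did not overlap and missed the threshold (log2 change 0.20, adjusted p = 0.0601). ERN1 passed without knockdown replicate 1 (0.0343), but not without knockdown replicate 2 (0.166). With the length trend removed the ERN1 change was 0.05 (adjusted p = 0.589).

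ATF6, whose cytosolic part is cut loose in the Golgi under stress and enters the nucleus, had 7.14, 7.32 and 6.74 FPKM in knockdown libraries, against 6.02, 5.98 and 5.90 FPKM in control libraries. It rose (log2 change 0.21, SE 0.059, adjusted p = 0.0117), although not with the length trend removed (0.12, adjusted p = 0.0849). ATF6B, its weaker relative, had 25.5, 23.9 and 23.1 FPKM in knockdown libraries and 23.1, 24.1 and 24.0 FPKM in control libraries, with overlap (log2 change 0.02, adjusted p = 0.70). EIF2AK3 encodes PERK, the kinase that slows translation by phosphorylating eIF2alpha. It had 1.03, 1.23 and 1.06 FPKM in knockdown libraries, against 0.717, 0.735 and 0.910 FPKM in control libraries, and passed (log2 change 0.24, adjusted p = 0.0283). Its change was 0.45 with a pseudocount of 0.1 and 0.50 with voom on recovered reads. The EIF2AK3 call was lost without control replicate 1 or 2 or knockdown replicate 2 (adjusted p 0.0756 to 0.0929).

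PPP1R15A and PPP1R15B encode the subunits that direct a phosphatase to eIF2alpha and so restart translation, the first known as stress-induced GADD34 and the second as the constitutive CReP. PPP1R15A (ENSG00000087074, chromosome 19, 48872392 to 48876057) had 125, 116 and 127 FPKM in knockdown libraries, against 71.0, 70.6 and 69.1 FPKM in control libraries. Every knockdown value was higher, a ratio of means of 1.74 (log2 change 0.79, SE 0.047, adjusted p = 1.09e-06). PPP1R15B had 21.9, 24.5 and 18.5 FPKM in knockdown libraries and 20.8, 21.2 and 21.6 FPKM in control libraries. The control values lay within the range of the knockdown values, and the difference did not pass (log2 change 0.02, adjusted p = 0.859).

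Changes of the members ran with gene length, as did those of all genes. Across genes, the Spearman correlation of log2 change with summed exon length in GENCODE v29 was 0.44 over the 39 members and 0.30 over 11209 tested genes, a description in which all points share the same 6 libraries. The 18 higher members had a median length of 5866 bases and the 10 lower members one of 3758 bases. All genes tested went from a median change of -0.19 in the shortest length decile to 0.18 in the longest. With this trend removed from each library, 15 members were higher and 10 lower, with a median of 0.09, and ERO1A, EDEM3, SSR1 and ATF6 no longer passed. Of all genes tested, 3198 were higher and 3158 lower under the same setting. SEC61B, among the shortest members at 1190 bases, then passed as higher (log2 change 0.35, adjusted p = 0.00132). After the removal the correlation was 0.21 over the members and -0.01 over all genes tested. The trend was fitted on GENCODE v29 lengths. For 8 members, among them CANX, ATF6 and EIF2AK3, these differ by over 10% from the length implied by the deposited values. The part of length in these changes was not tested further. Whether counting used strand is not given in the sources used here, and 20 of 39 members have exons that overlap a gene on the opposite strand.

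**Figure D3:**
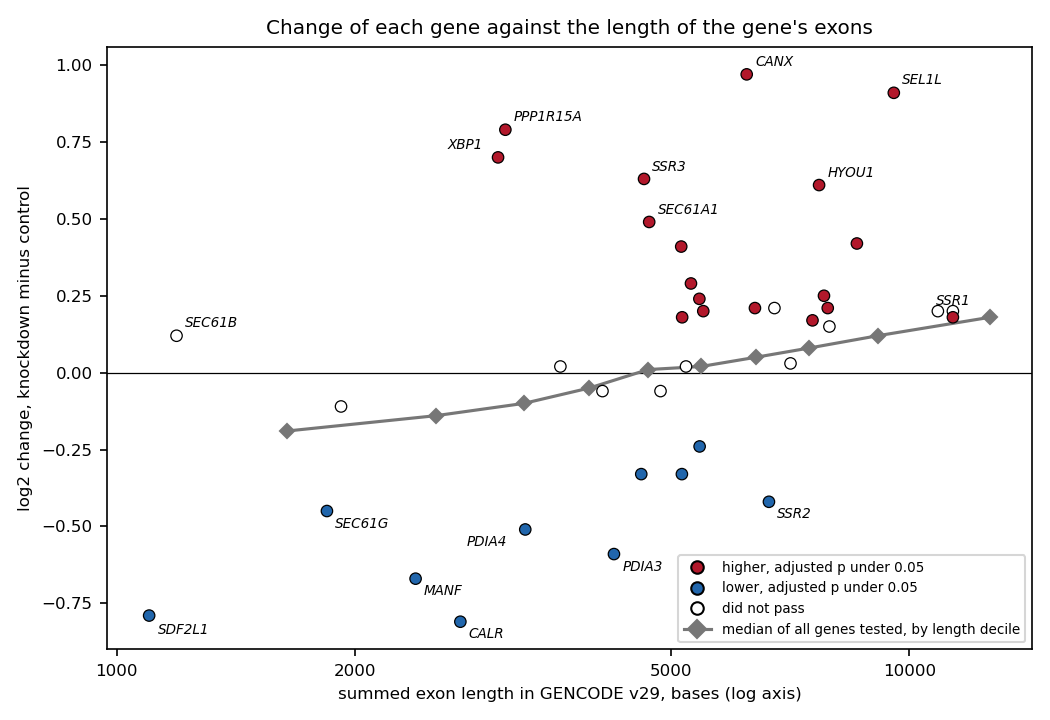
Log2 change of the 39 genes (knockdown minus control) against summed exon length in GENCODE v29 (log axis), with the median of all tested genes in each length decile as grey diamonds. The diamonds climb from -0.19 to 0.18, while members of similar length, such as XBP1 and PPP1R15A above and CALR and PDIA4 below, lie on both sides of them.

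Other genes of the same pathways were read from 4 further lists. The counts of each list are to be read beside all genes tested, of which 57.4% passed, 29.5% as higher and 27.8% as lower. Of 33 tested ER folding enzymes outside the members, 5 were higher and 14 lower (median log2 change -0.13). On the log2(FPKM + 1) scale the largest rises were TMX3, a membrane-bound thioredoxin-like protein, at 13.3 ± 0.421 FPKM in the knockdown and 9.34 ± 0.245 FPKM in the control, and FKBP9, a prolyl isomerase, at 22.6 ± 1.29 and 16.7 ± 0.352 FPKM in knockdown and control. The largest falls were PDIA5 and CNPY4. PDIA5 was at 10.3 ± 1.20 FPKM in the knockdown and 16.6 ± 0.620 FPKM in the control. CNPY4 was at 1.21 ± 0.110 and 2.29 ± 0.554 FPKM in knockdown and control, on 35 to 50 and 67 to 101 reads. Its control libraries had 2.01, 1.93 and 2.93 FPKM. Under a common sum this list had 8 higher and 7 lower, and with the length trend removed 5 higher and 10 lower.

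Of 31 further ERAD genes, 11 were higher and 4 lower (median 0.08). Under a common sum 18 were higher and 1 lower, and 1 was lower without control replicate 1 or without knockdown replicate 3. SELENOS, a membrane partner of the derlins and VCP, was at 20.1 ± 0.915 FPKM in the knockdown and 13.7 ± 0.701 FPKM in the control. RHBDD1, a rhomboid protease, was at 7.97 ± 0.979 and 5.27 ± 0.283 FPKM in knockdown and control. TMUB1 fell to 24.8 ± 2.91 FPKM in knockdown libraries, against 34.9 ± 3.08 FPKM in control libraries. UBXN6, a VCP cofactor, was at 14.2 ± 1.16 and 16.4 ± 0.854 FPKM in knockdown and control (adjusted p = 0.0255), a call lost without control replicate 1 or 3 or knockdown replicate 3 (adjusted p 0.0501 to 0.106) and under a common sum (0.568).

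Of 30 genes of targeting, signal peptidase and oligosaccharyltransferase, 12 were higher and 6 lower (median 0.02), against 16 and 2 under a common sum. SEC11C, a catalytic subunit of signal peptidase, rose to 11.2 ± 0.186 FPKM in knockdown libraries, against 7.36 ± 0.692 FPKM in control libraries. Its paralogue SEC11A fell to 22.4 ± 0.388 FPKM in knockdown libraries, against 29.2 ± 1.00 FPKM in control libraries (log2 changes 0.55 and -0.37, adjusted p = 9.52e-05 and 1.17e-04). TRAM1, a channel-associated protein, was at 104 ± 7.78 and 70.8 ± 0.518 FPKM in knockdown and control, and SRP14, a subunit of the signal recognition particle, at 80.9 ± 3.05 and 122 ± 1.57 FPKM.

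Of 30 other stress response regulators, 10 were higher and 8 lower (median 0.01), against 15 and 3 under a common sum. CREB3L2, a membrane-bound transcription factor related to ATF6, had a ratio of means of 2.19, at 6.09 ± 0.547 FPKM in the knockdown and 2.78 ± 0.143 FPKM in the control (log2 change 0.91, adjusted p = 9.58e-06). Kinases of eIF2alpha outside the ER went both ways: EIF2AK2, which double-stranded RNA activates, was at 25.2 ± 3.04 and 16.0 ± 0.592 FPKM in knockdown and control, and EIF2AK1, the heme-regulated one, at 23.2 ± 1.26 and 29.9 ± 0.594 FPKM (adjusted p = 9.42e-05 and 2.65e-04). TRAF2, which binds activated IRE1, fell to 21.3 ± 0.937 FPKM in knockdown libraries, against 27.4 ± 1.85 FPKM in control libraries (adjusted p = 6.41e-04). For all genes named from these lists other than UBXN6, the call held in each of the 15 other settings in which the gene was tested.

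**Figure D4:**
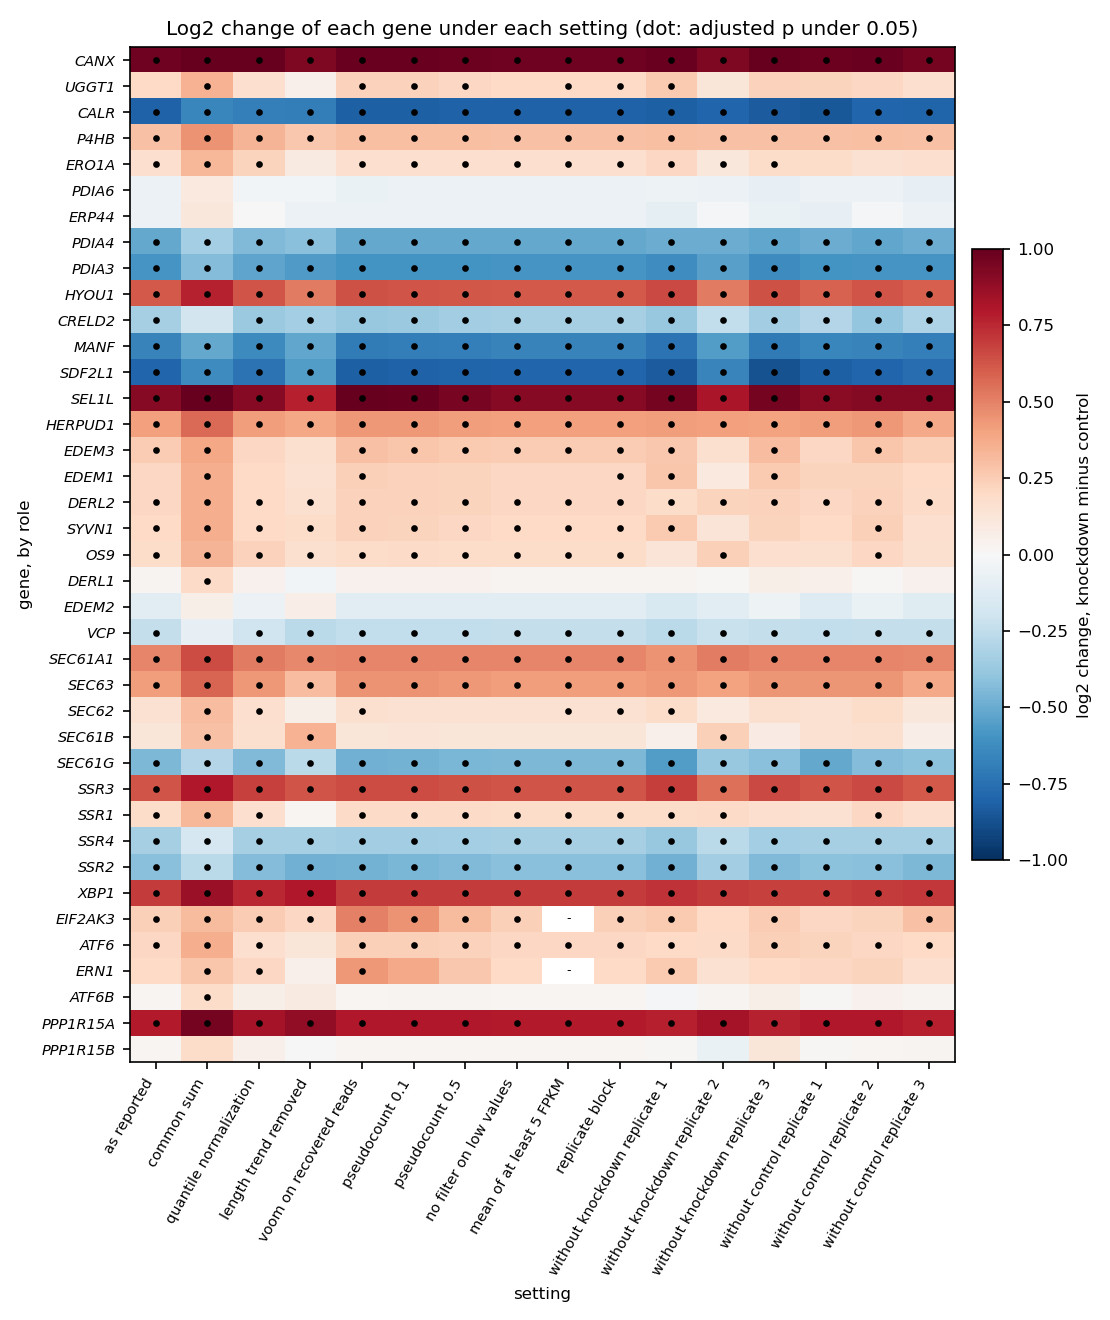
Log2 change (colour) of each of the 39 genes, in rows by role, under the reported setting and 15 others, in columns, with a dot where the adjusted p was under 0.05 and a dash where the gene was not tested. CANX, SEL1L, XBP1 and PPP1R15A stay red and CALR, PDIA3, PDIA4, SDF2L1 and MANF stay blue across all columns, whereas pale rows such as PDIA6, ERP44 and EDEM2 change colour under a common sum.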

How the data were processed

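RNA-seq of HaCaT cells gave 3 knockdown and 3 control libraries, grouped by their titles. The authors deposited FPKM values per gene (fragments per kilobase, scaled to depth), made with HISAT2 2.2.1 on GRCh38 per the submitters' processing notes; the counting program, annotation and strand use were not given in the sources used here. Per the labels' protocols, RNA was extracted with TRIzol and libraries were made with an Illumina TruSeq kit.

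The test was limma (version 3.58.1, R version 4.3.3), with trended variances and group as the only factor. It used log2(FPKM + 1), a scale that understates changes of low genes, and genes averaging 0.5 FPKM or more. IQGAP2 lies below that filter and was added to the fit. Whole reads were recovered for all 12829 genes (tolerance 0.004 reads) from exact multiples in the FPKM values and served for depth and a voom alternative. The script was tested on simulated data. Lengths came from GENCODE v29 (GRCh38) and promoters from RefSeq (GRCh38.p14).

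The members, roles and lists were chosen with earlier results of these data known, so no test over a list was made. Values in every library are given for up to 10 members with the largest rise and up to 10 with the largest fall among those that passed without overlap, for every sensor and phosphatase subunit, and for a few others (UGGT1, SEC61B) chosen after their values were seen; from each further list the 2 largest rises and falls are named.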

Additional observations from a re-analysis of the deposited data

How the results depend on the processing

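Of the genes named, the fewest reads lay behind IQGAP2 (2 to 4 in knockdown and 21 to 24 in control libraries). Few also lay behind CNPY4 (35 to 50 in knockdown and 67 to 101 in control libraries). Among the members, ERN1 had the fewest (109 to 175 in knockdown and 92 to 115 in control libraries). Of the 15 alternatives, 9 changed the processing and 6 left out a library. With a common sum, 1838 of all genes were lower, the members' median was 0.32, and the other ER folding enzymes had 8 higher and 7 lower, the other ERAD genes 18 and 1, the targeting list 2 lower and the other stress regulators 3 lower. The members' median was 0.09 with the length trend removed. Over the alternatives that left out 1 library, the members' median ran from 0.12 to 0.21, their number higher from 12 to 21, the number of other ERAD genes lower from 1 to 5, and the IQGAP2 log2 change from -0.23 to -0.22. Over the same alternatives, the number of all genes higher ran from 2779 to 3250. Signs changed only for members that had not passed: with a common sum PDIA6 was at 0.10, ERP44 at 0.11 and EDEM2 at 0.06; with the length trend removed EDEM2 was at 0.07 and DERL1 at -0.03; without knockdown replicate 1 ATF6B was at -0.01; without knockdown replicate 2 PPP1R15B was at -0.07. UGGT1 passed with a common sum (adjusted p = 0.00685), with voom (0.0204), with pseudocounts of 0.1 and 0.5 (0.0491 and 0.0496), with genes of at least 5 FPKM (0.046) and with the replicate block (0.0486). The labels do not say that replicate numbers pair libraries, so same-numbered libraries were not treated as pairs. Their deviations from the group means had correlations of -0.07, -0.04 and 0.02 over genes. With means of only 3 libraries, these cannot decide whether the cultures were paired. The replicate block gave 21 members higher and 10 lower, adding UGGT1, EDEM1 and SEC62. With that block, 3167 of all genes were higher and 3024 lower. On recovered reads, voom called 3425 of all genes higher and 3184 lower, with 22 members higher and 10 lower. EDEM1, SEC62 and ERN1 also passed with a common sum and with voom, SEC61B, DERL1 and ATF6B with a common sum, ERN1 and SEC62 after quantile normalization, where EDEM3 was lost, and SEC62 with genes of at least 5 FPKM. The causes were not tested.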
